A study of Danio rerio with 10 samples.

Results

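Translation initiation, elongation and termination factors and the aminoacyl-tRNA synthetases were followed in zebrafish kidney marrow, where the blood cells of adult fish are made. The genes were picked by a rule on their names, set with earlier results of these data known. A gene was a member if its single symbol in the array annotation began with eif, eef or etf1, or was an amino acid letter (or ep) followed by ars, ars1, ars2 or arsb. That gave 85 of the 8793 named genes, which were 51 initiation factors, 14 elongation and termination factors and 20 synthetases. The CREB group was 5 fish that overexpress the human CREB, a transcription factor that cyclic AMP signalling switches on. The control group was 5 control zebrafish, 1 array per animal in both groups. Total RNA of the marrow was measured, and the sources used here name no cell sorting, no promoter for the transgene, no strain and no age. The series' title ties CREB overexpression to leukaemia with a block in myeloid differentiation. In whole-tissue RNA, fewer cells of a type and less RNA per cell cannot be told apart. Signals are on the log2 scale throughout, and a difference is CREB minus control.

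A ribosome starts on most mRNAs when eIF2 brings the initiator tRNA, eIF4F opens the capped 5′ end of the mRNA, and eIF3 joins the mRNA to the small subunit. The exchange factor eIF2B recharges eIF2 with GTP, and the 4E-binding proteins block the cap-binding subunit eIF4E when the kinase mTOR is inactive. eEF1A delivers charged tRNAs, eEF2 moves the ribosome along, and the release factor eRF1 ends the chain at a stop codon. The synthetases load each amino acid on its tRNA, with separate enzymes for cytosol and mitochondria in most cases. Gene roles below are those of the human or yeast proteins of the same name.

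The translation machinery did not move as a block. The largest member past the test was the release factor gene etf1b, which was 2.58-fold higher in CREB marrow. Higher members were 6 genes of the initiation class (eif5a, eif4bb, eif2b5, eif4g3a, eif3c and eif3g), the elongation factor gene eef1a1l1 and 5 synthetases counted as cytosolic (farsb, iars1, wars1, qars1 and hars). Lower members were the cap-binding gene eif4e3, the repressor gene eif4ebp3l, the eIF2 subunit gene eif2s1a, the eIF3 gene eif3ja and, at low signal, eef1akmt2 and eef2a.1. Of the 85 members 13 were higher, 6 were lower and 66 did not pass (limma, adjusted p under 0.05). Over all 15502 probe sets 30.3% passed, 23.5% higher and 6.79% lower. Over the named genes, taken like the members at 1 probe set each, 28.4% passed, 19.3% higher and 9.09% lower. The members' share, 22.4% with 15.3% higher and 7.06% lower, lay below those backgrounds in every one of these counts except the lower share against all probe sets.

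**Figure D1:**
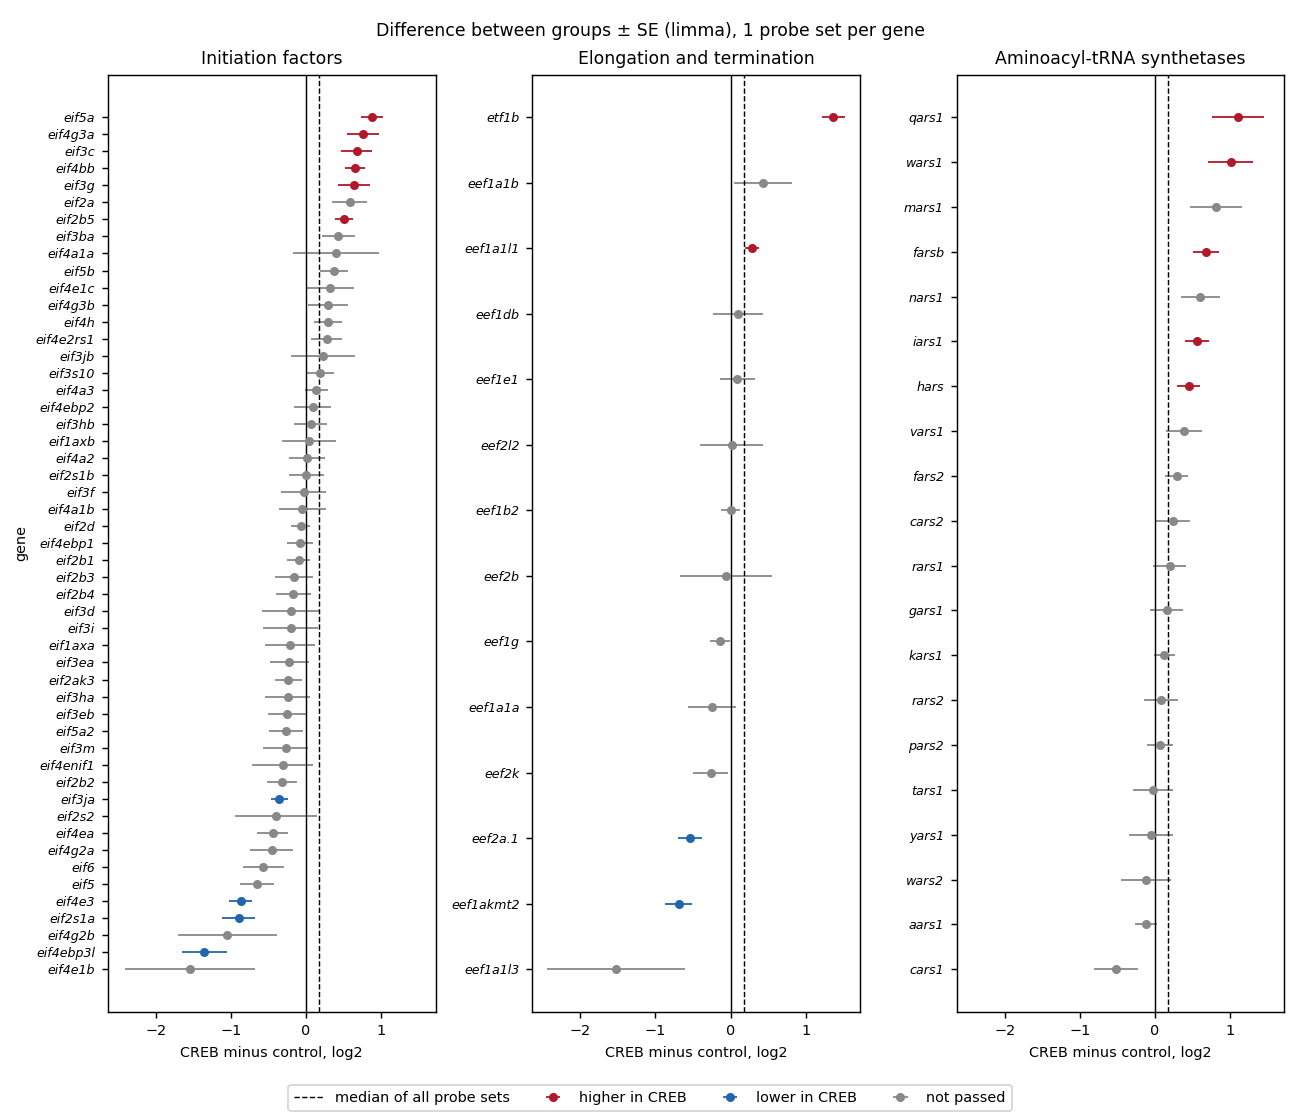
CREB minus control difference of log2 signal (x axis) for each of the 85 genes (y axis), in 3 panels by class, with bars of 1 SE from limma (n = 5 arrays per group). Red genes passed as higher, blue genes as lower and grey genes did not pass, and the dashed line marks the median of all probe sets at 0.18. The 13 red and 6 blue genes stand among 66 grey ones, and no synthetase is blue.

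By class, 6 of 51 initiation factors were higher and 4 lower, 2 of 14 elongation and termination factors were higher and 2 lower, and 5 of 20 synthetases were higher with none lower. The median log2 difference was -0.08 for initiation, -0.03 for elongation and termination and 0.22 for synthetases, against 0.18 for all probe sets and 0.10 for the named genes. The value for all probe sets depended on their brightness. Without the dimmest 40% of probe sets, where 83 members remained, it was 0.01, beside -0.08 for initiation, 0.01 for elongation and termination and 0.22 for synthetases. At a mean log2 signal of 6 or more, with 76 members, it was -0.03, beside -0.10, 0.01 and 0.19. Among these brighter probe sets the synthetase median thus lay above, the initiation median below and the elongation median close to that of all probe sets. The members' share past the test without the dimmest 40% was 14.5%, against 21.9% of the probe sets. The initiation median lay below that of all probe sets in the deposited values and under quantile, median and cyclic loess scaling. Under those 3 scalings the median of all probe sets was 0.04, 0.11 and -0.01, and the initiation median was -0.04, -0.14 and -0.11. The elongation median changed sign with quantile scaling, to 0.03, and was -0.09 and -0.12 under the other scalings. The synthetase median was 0.20, 0.16 and 0.11, above all probe sets each time. Without CREB arrays 3 and 5 the initiation and elongation medians were positive, at 0.14 and 0.10, against 0.19 for all probe sets. Groups did not overlap for 15 members (17.6%), against 23.8% of all probe sets. Of the 19 members past the test 14 were free of overlap.

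Arrays differed in ways that touch these genes. Array medians lay between 5.72 and 5.93. The 5′ probe set of gapdh, whose gap to the 3′ probe set widens when RNA is fragmented, was at 6.50 on array 3 and 6.74 on array 5 of the CREB group and at 9.92 to 10.37 on its other arrays, against 9.54 to 10.70 in the control group. Its 3′ probe set lay between 10.79 and 12.05 on all 10 arrays. Egg and gonad markers averaged 7.48 on CREB array 4, and 9.93, 8.17 and 9.97 on control arrays 3, 4 and 5. The other 6 arrays lay between 5.08 and 5.96. Of that list's 11 measured genes 1 was lower and none higher. Pancreas enzyme genes averaged 10.11 and 11.37 on control arrays 4 and 5, against 5.35 to 6.94 elsewhere, and none of 11 passed. Skeletal muscle markers ran from 7.495 to 10.16 on CREB arrays and from 4.77 to 5.32 on control arrays, with 12 of 13 higher and none lower. Kidney tubule markers ran from 9.46 to 10.49 in CREB and from 8.04 to 8.99 in control marrow, with 5 of 6 higher. The muscle and tubule means were higher on every CREB array than on any control array. Leaving arrays out cannot remove that difference, and its part in the members' differences was not tested. Markers of the marrow's own blood cells were present in both groups, with hbaa1, the haemoglobin gene, at 14.46 in CREB and 14.50 in control marrow and the neutrophil lysozyme gene lyz at 13.48 in CREB and 14.07 in control marrow. Of the neutrophil markers 4 of 9 were lower, with list means of 9.48 to 10.49 on CREB arrays and 10.28 to 11.36 on control arrays. Of 7 erythroid markers none passed, of 5 macrophage markers 1 was lower, of 3 lymphoid markers 2 were higher and of 4 thrombocyte markers 2 were lower. The lymphoid list held 9 genes, of which only those 3 were measured. Both lymphoid calls were dim, with pax5 at 5.78 in CREB and 5.37 in control marrow, and rag2 at 5.34 and 4.87. Empty-tag control probe sets averaged 4.33 ± 0.10 in CREB and 4.08 ± 0.11 in control samples (SD, n = 5 each), so signals near these values are close to background. Hybridisation controls averaged 10.76 in CREB and 10.05 in control samples.

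**Figure D2:**
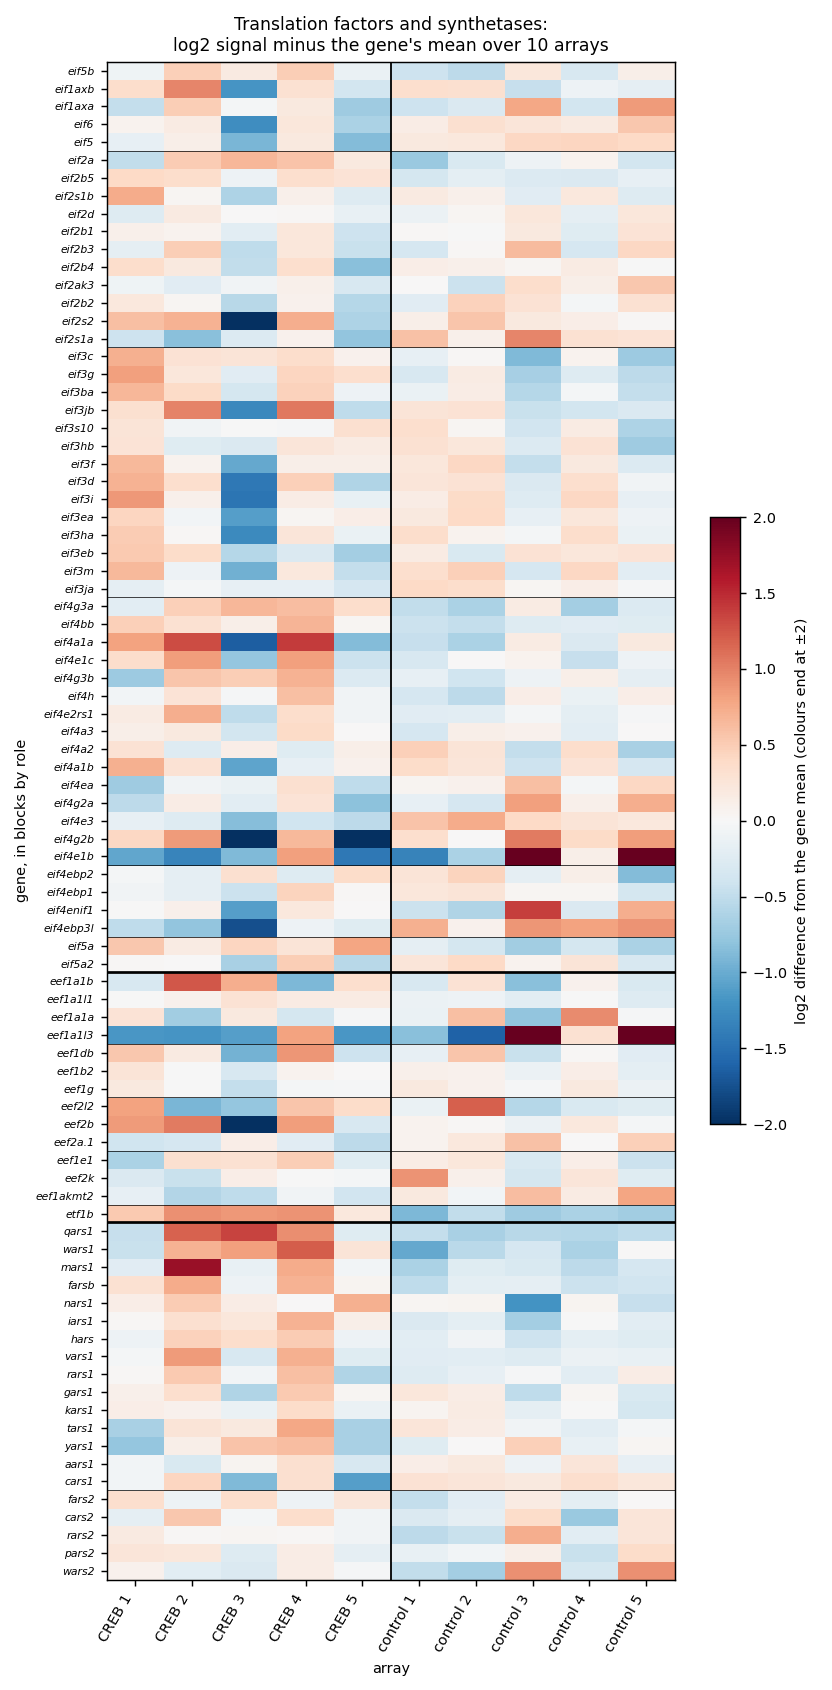
Log2 signal of each of the 85 genes (rows, in blocks by role) on each array (columns, CREB left and control right), minus the gene's mean over 10 arrays, with red above and blue below that mean and colours ending at ±2. CREB array 3 is blue for most eIF3 genes, and eif4e1b and eef1a1l3 are dark red on control arrays 3 and 5.

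Spread was wider within the CREB group for most members. The SD over arrays was larger in CREB than in control marrow for 60 of 85 members (70.6%), against 56.9% of all probe sets. The median SD of the members was 0.43 in CREB and 0.28 in control marrow. CREB array 3 gave the lowest of the CREB values for 36 of 85 members (42.4%), against 21.0% of all probe sets, and for 27 of the 51 initiation factors. CREB arrays 3 and 5, those with a low 5′ gapdh signal, were both below all 8 other arrays for 17 of 85 members, against 11.0% of all probe sets, and both above them for none (8.61% of all probe sets). Among those 17 were eef2b, eif2s2, eif4a1a, eif4g2b, eif3d, eif4e3, eif5 and cars1. The part of fragmented RNA in the members' differences was not tested beyond leaving these arrays out.

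The elongation factor 2 gene eef2b was one of these 17. It had 12.67, 12.86, 9.25, 12.64 and 11.50 on CREB arrays 1 to 5, against 11.88, 11.84, 11.70, 12.02 and 11.78 in control marrow. CREB arrays 1, 2 and 4 lay above every control array and arrays 3 and 5 below every one. Over all arrays its log2 difference was -0.06 ± 0.61 (SE; limma, adjusted p = 0.946), with a 95% interval from -1.41 to 1.29. Without CREB arrays 3 and 5 it was 0.88 ± 0.12 (SE; limma, adjusted p = 0.00875). The helicase gene eif4a1a, which encodes the eIF4F subunit that unwinds mRNA, had 10.29, 10.80, 7.84, 10.89 and 8.62 in CREB and 9.03, 8.85, 9.65, 9.20 and 9.69 in control marrow. Again CREB arrays 1, 2 and 4 lay above and arrays 3 and 5 below all control arrays. In a second and dimmer eif4a1a probe set CREB arrays 3 and 5 were again lowest of their group, at 5.16 and 5.35. The other CREB arrays were at 6.11 to 6.58 there. All CREB arrays of that probe set lay inside the control range, with a difference of 0.01 over all arrays (limma, adjusted p = 0.988). There control array 5, at 6.75, lay above and control array 2, at 5.04, below all CREB arrays. The log2 difference of the first eif4a1a probe set, 0.40 ± 0.57 over all arrays, was 1.37 ± 0.24 without CREB arrays 3 and 5 (SE; limma, adjusted p = 0.600 and 0.0173). The eIF3 gene eif3ba, the cap-binding gene eif4e1c and eif4e2rs1 also passed as higher only in that fit, at 0.72, 0.83 and 0.56 (limma, adjusted p = 0.0431, 0.0267 and 0.0449). A second eif4e1c probe set had a difference of 0.13 over all arrays and did not pass (limma, adjusted p = 0.785). The eIF4G relative gene eif4g2b had 5.70 on CREB array 3, 5.55 on CREB array 5 and 8.30 to 8.75 on the rest of that group, and 7.89 to 8.93 in control marrow, and did not pass. With those arrays left out 11 members were higher and 3 lower (13.1% of all probe sets passed), and 6 of the 13 higher and 3 of the 6 lower calls were kept. The calls lost there were eef1a1l1, eef1akmt2, eif2s1a, eif3c, eif3ja, eif4g3a, hars, iars1, qars1 and wars1.

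**Figure D3:**
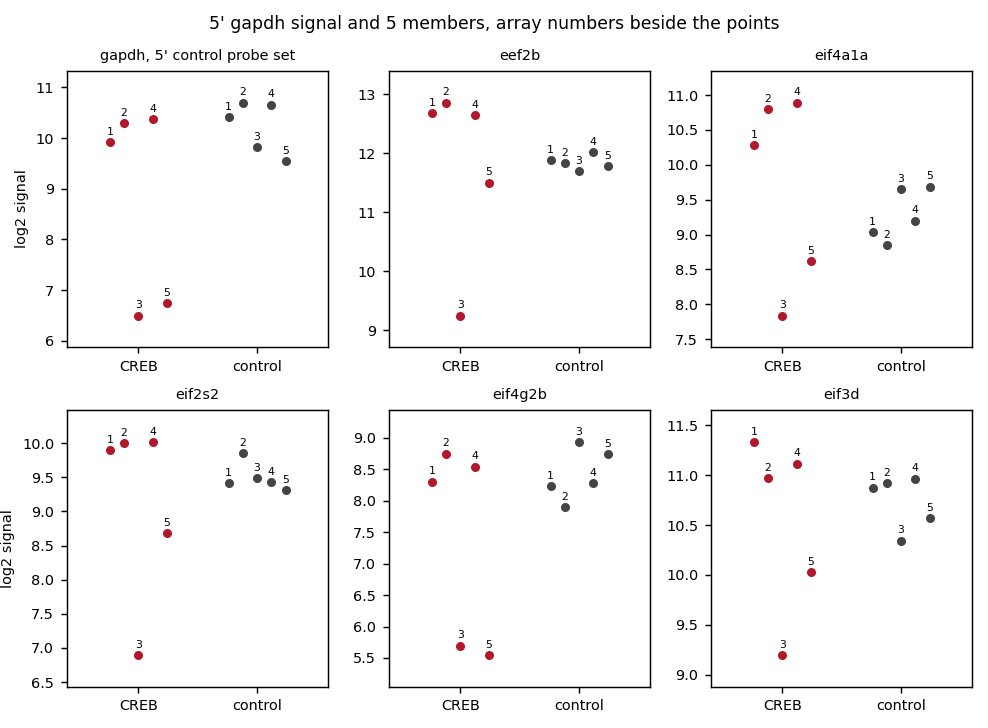
Log2 signal (y axis) of the 5′ gapdh control probe set and of eef2b, eif4a1a, eif2s2, eif4g2b and eif3d on each array, CREB left and control right, with the array number beside each point. CREB arrays 3 and 5 are the 2 lowest points in every panel, with eef2b at 9.25 and 11.50 there.

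Among eIF2 and its partners, eif2s1a, which encodes an alpha subunit of eIF2, the target of the stress kinases, was lower. It had 7.58, 7.15, 7.71, 8.07 and 7.20 in CREB marrow, against 8.58, 8.10, 8.96, 8.30 and 8.27 in control marrow. The groups did not overlap, although CREB array 4 and control array 2 were close. The fall was 0.90 ± 0.22 on the log2 scale (a log2 difference of -0.90; SE; limma, adjusted p = 0.0153). Its paralogue eif2s1b did not pass, with a 95% interval from -0.52 to 0.52. The alternative initiation factor gene eif2a, at 0.58, and eif2d, at -0.07, did not pass, nor did eif2s2, for the beta subunit, at -0.40 (limma, adjusted p = 0.0840, 0.667 and 0.585). Without CREB array 1, and with the replicate number as a block, eif2a passed as higher. The eIF2B gene eif2b5, for the catalytic epsilon subunit of the exchange factor, had 8.07, 8.04, 7.58, 8.02 and 7.95 in CREB and 7.32, 7.49, 7.41, 7.39 and 7.51 in control marrow. CREB array 3 alone came near the control range. It rose by 0.51 ± 0.12 (SE; limma, adjusted p = 0.0130), and the genes of the other 4 measured eIF2B subunits, eif2b1 to eif2b4, had differences between -0.32 and -0.10 and did not pass. For eif2b2, eif2b3, eif2b4, eif2s1b and eif2s2, CREB arrays 3 and 5, those with a low 5′ gapdh signal, were both below all other arrays. The differences given for these genes include those arrays. The eIF2 kinase gene eif2ak3, known as PERK in human, had a difference of -0.24 ± 0.18 (limma, adjusted p = 0.311). Another of its 3 probe sets, at a low mean signal of 4.61, was higher by 0.61 (limma, adjusted p = 0.0171). That probe set was at 4.92 in CREB and 4.31 in control marrow, against empty-tag levels of 4.33 and 4.08, which limits the reading of its rise. Of the 11 genes of this group 1 rose, 1 fell and 9 did not pass.

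The cap-binding group held the fall that passed under every setting and the largest fall past the test. The gene eif4e3, for an atypical member of the cap-binding eIF4E family, had 8.24, 8.15, 7.54, 7.9995 and 7.88 in CREB marrow and 8.97, 9.15, 8.80, 8.65 and 8.602 in control marrow. Every CREB array lay below every control array. The log2 difference was -0.87 ± 0.16 (SE; limma, adjusted p = 0.00643), a level 1.83-fold lower, and its second probe set, at a mean of 3.90 in CREB marrow, was not above the empty-tag level there and gives no size of a fall. The eif4e3 call held in each of the 12 other settings and with any 1 array left out. Its 2 lowest values were on CREB arrays 3 and 5, those with a low 5′ gapdh signal, and without them the difference was -0.71. The 4E-binding protein gene eif4ebp3l had 7.998, 7.72, 6.75, 8.40 and 8.26 in CREB and 9.21, 8.59, 9.39, 9.31 and 9.40 in control marrow. Here too the groups were apart, with CREB array 3 lowest and control array 2 nearest to the CREB range. It was 2.56-fold lower (log2 difference -1.36 ± 0.30, SE; limma, adjusted p = 0.0121). Without control arrays 3, 4 and 5 it was at -1.08 and did not pass (limma, adjusted p = 0.163), with 2 control arrays left.

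The other eIF4E repressor genes, eif4ebp1, eif4ebp2 and eif4enif1, had log2 differences of -0.08 ± 0.18, 0.09 ± 0.25 and -0.31 ± 0.41 (SE) and did not pass. Their 95% intervals, from -0.47 to 0.31 and from -0.46 to 0.64 for eif4ebp1 and eif4ebp2, leave out a change as large as that of eif4ebp3l. The other cap-binding genes eif4ea, eif4e1c and eif4e2rs1 had differences of -0.44, 0.32 and 0.27 and did not pass. Without CREB array 4, eif4ea passed as lower, at -0.58 (limma, adjusted p = 0.0418).

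Of the helicase and scaffold genes around the cap, eif4bb, for the helicase cofactor eIF4B, had 9.71, 9.54, 9.36, 9.91 and 9.28 in CREB marrow, against 8.80, 8.76, 8.97, 9.01 and 8.999 in control marrow. The groups were free of overlap. It rose by 0.65 ± 0.14 (SE; limma, adjusted p = 0.00995), 1.57-fold, a call lost without control arrays 4 and 5 (adjusted p = 0.0521). The scaffold gene eif4g3a, at a low signal of 6.01 ± 0.35 in CREB and 5.25 ± 0.34 in control marrow (SD, n = 5 each), rose by 0.76 ± 0.21 (SE; limma, adjusted p = 0.0244). Its groups overlapped, and the call was lost without CREB array 3, control array 1 or control array 4 (adjusted p up to 0.0565). Its paralogue eif4g3b, at 0.29, did not pass. The genes eif4a1b, eif4a2 and eif4a3, grouped here by name only, with eif4a1a described above, and the cofactor gene eif4h had differences between -0.05 and 0.40 and did not pass. The eIF4G relative gene eif4g2a did not pass either, at -0.46 ± 0.28, but a second and dimmer probe set was higher by 1.23 (limma, adjusted p = 0.00812), so its probe sets disagreed.

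The egg form of eIF4E moved with the egg markers. The gene eif4e1b, an eIF4E paralogue used in oocytes, had 5.55, 5.27, 5.71, 7.41 and 5.15 in CREB marrow and 5.26, 5.96, 9.58, 6.70 and 9.31 in control marrow. Control arrays 3 and 5 were highest, CREB array 4 and control array 4 came next, and the other 6 arrays were at 5.96 or less. The eEF1A paralogue gene eef1a1l3 had 5.46, 5.44, 5.51, 7.42 and 5.45 in CREB and 5.78, 5.01, 9.79, 6.92 and 9.40 in control marrow, with the same arrays high. Their log2 differences were -1.54 ± 0.87 and -1.52 ± 0.92 (SE; limma, adjusted p = 0.185 and 0.215). Without control arrays 3, 4 and 5 both turned positive, at 0.21 and 0.46, and did not pass. Control arrays 3 and 5 were also both above all other arrays for 11 more members. Among them were eif1axa, eif4ea, eif4enif1 and wars2 and the lower calls eif4ebp3l, eef1akmt2 and eef2a.1. That made 13 of 85 (15.3%), against 13.4% of all probe sets. The same 2 arrays were both below all others for 10 of 85 members (11.8%), against 19.6% of all probe sets. Those 10 held the higher calls eef1a1l1, eif3c, eif3g, eif5a and hars, and also kars1 and nars1, which did not pass.

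**Figure D4:**
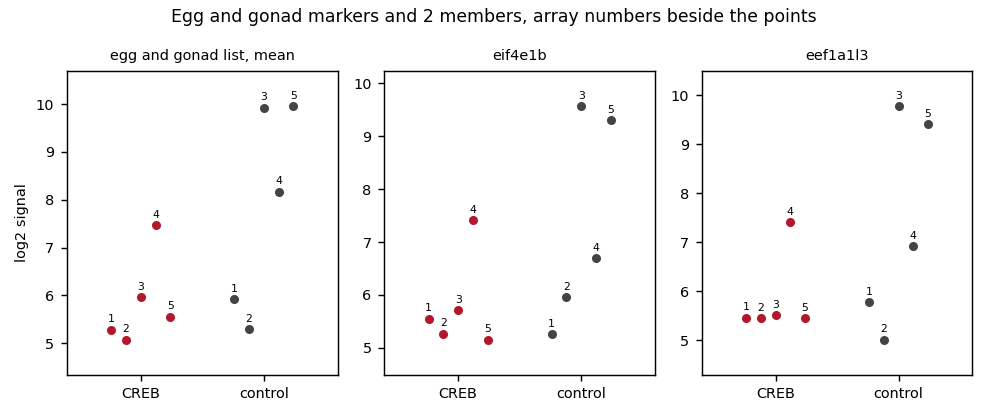
Mean log2 signal of 11 egg and gonad markers, and log2 signal of eif4e1b and eef1a1l3 (y axis), on each array, CREB left and control right, with the array number beside each point. Control arrays 3 and 5 are highest in all 3 panels and CREB array 4 is the highest of its group, at 7.48, 7.41 and 7.42.

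The eIF3 complex, the large scaffold of the small ribosomal subunit, was measured through 14 genes, of which 2 rose, 1 fell and 11 did not pass. The core subunit gene eif3c had 10.42, 10.002, 9.97, 10.07 and 9.80 in CREB and 9.55, 9.74, 8.84, 9.78 and 8.995 in control marrow. The groups just failed to overlap, with control arrays 3 and 5 lowest. It rose by 0.67 ± 0.21 (SE; limma, adjusted p = 0.0369). The call was lost without CREB array 1, 2, 3 or 4 or control array 1, 3 or 5 (adjusted p up to 0.0798). The subunit gene eif3g rose by 0.64 ± 0.21 (limma, adjusted p = 0.0433), at 11.29 ± 0.38 in CREB and 10.66 ± 0.31 in control marrow (SD, n = 5 each). Its groups overlapped, and the call was lost when any 1 array other than CREB array 3 or control array 2 was removed (adjusted p reaching 0.0912). The loosely bound subunit gene eif3ja fell by 0.36 ± 0.12, with ranges of 8.84 to 9.15 in CREB and 9.17 to 9.59 in control marrow (SE; limma, adjusted p = 0.0402). That call was lost without CREB array 1, 3, 4 or 5 or control array 1, 2 or 4 (adjusted p up to 0.0875).

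The other 11 eIF3 genes, eif3ba, eif3d, eif3ea, eif3eb, eif3f, eif3ha, eif3hb, eif3i, eif3jb, eif3m and eif3s10, had log2 differences between -0.27 and 0.43. Of all 14 eIF3 genes 11 were highest on CREB array 1 among the CREB arrays and 10 were lowest on CREB array 3, against 26.4% and 21.0% of all probe sets. Among the control arrays 9 of 14 were lowest on array 3, against 36.1% of all probe sets, and the highest control values were spread over arrays 1 to 4. The subunit gene eif3i shows the size of this spread, with 11.99, 11.23, 9.67, 11.27 and 10.98 in CREB and 11.28, 11.51, 10.88, 11.54 and 10.96 in control marrow. CREB arrays 1 and 3 lay above and below all control arrays.

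Of the remaining initiation genes only eif5a passed. Its product, eIF5A, was named for initiation but mainly helps the ribosome through poor peptide bonds in yeast and human cells. It had 11.96, 11.59, 11.85, 11.68 and 12.20 in CREB marrow, against 11.23, 11.07, 10.73, 11.07 and 10.78 in control marrow. Every CREB array lay above every control array. It was 1.84-fold higher (log2 difference 0.88 ± 0.15, SE; limma, adjusted p = 0.00512), and its second probe set, at 0.35 ± 0.24, missed the threshold (limma, adjusted p = 0.278). Its paralogue eif5a2 had a difference of -0.27 ± 0.23 and did not pass. The eif5a2 signal was 10.22 and 10.32 on CREB arrays 3 and 5, 10.88 to 11.37 on the rest of that group and 10.55 to 11.27 in control marrow. Without control arrays 3, 4 and 5 eif5a was at 0.71 and did not pass (limma, adjusted p = 0.0890). The GTPase activator gene eif5, at -0.65 ± 0.23, missed the threshold (limma, adjusted p = 0.0536). It passed as lower under quantile, median and cyclic loess scaling, at -0.61, -0.72 and -0.69 (limma, adjusted p = 0.0414, 0.0368 and 0.0478), with array weights, and without CREB array 2 or 4. Without CREB arrays 3 and 5 it was at -0.28 (limma, adjusted p = 0.157). It had 8.94 and 8.99 on CREB arrays 3 and 5, 9.69 to 10.04 on the other CREB arrays and 10.04 to 10.28 in control marrow. The genes eif5b, for the factor that joins the ribosomal subunits, eif6, for one that keeps them apart, and eif1axa and eif1axb, for eIF1A, did not pass. With array weights eif5b passed as higher. Its second probe set had a difference of -0.05 over all arrays and did not pass (limma, adjusted p = 0.934).

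At termination, etf1b, which encodes eRF1, had 9.78, 10.17, 10.12, 10.16 and 9.47 in CREB marrow, against 8.35, 8.77, 8.55, 8.62 and 8.57 in control marrow. Every CREB array lay above every control array. The log2 difference was 1.37 ± 0.16 (SE; limma, adjusted p = 0.00127), with a 95% interval from 1.02 to 1.72. It held in each of the 12 other settings, at 0.75 to 1.47, and with any 1 array left out, at 1.31 to 1.49. The lowest of these, 0.75, was the mean of the gene's 4 probe sets. Of the 4 probe sets 3 were higher, the other 2 of them by 0.88 and 0.77 at mean log2 signals of 5.98 and 5.73 (limma, adjusted p = 0.00463 and 0.00758). The remaining one, at 8.25 ± 0.76 in CREB and 8.26 ± 0.66 in control marrow (SD, n = 5 each), had a difference of -0.01 (limma, adjusted p = 0.987). That probe set was low on CREB arrays 3 and 5, at 7.41 and 7.49, and high on control arrays 3 and 5, at 8.91 and 8.995.

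**Figure D5:**
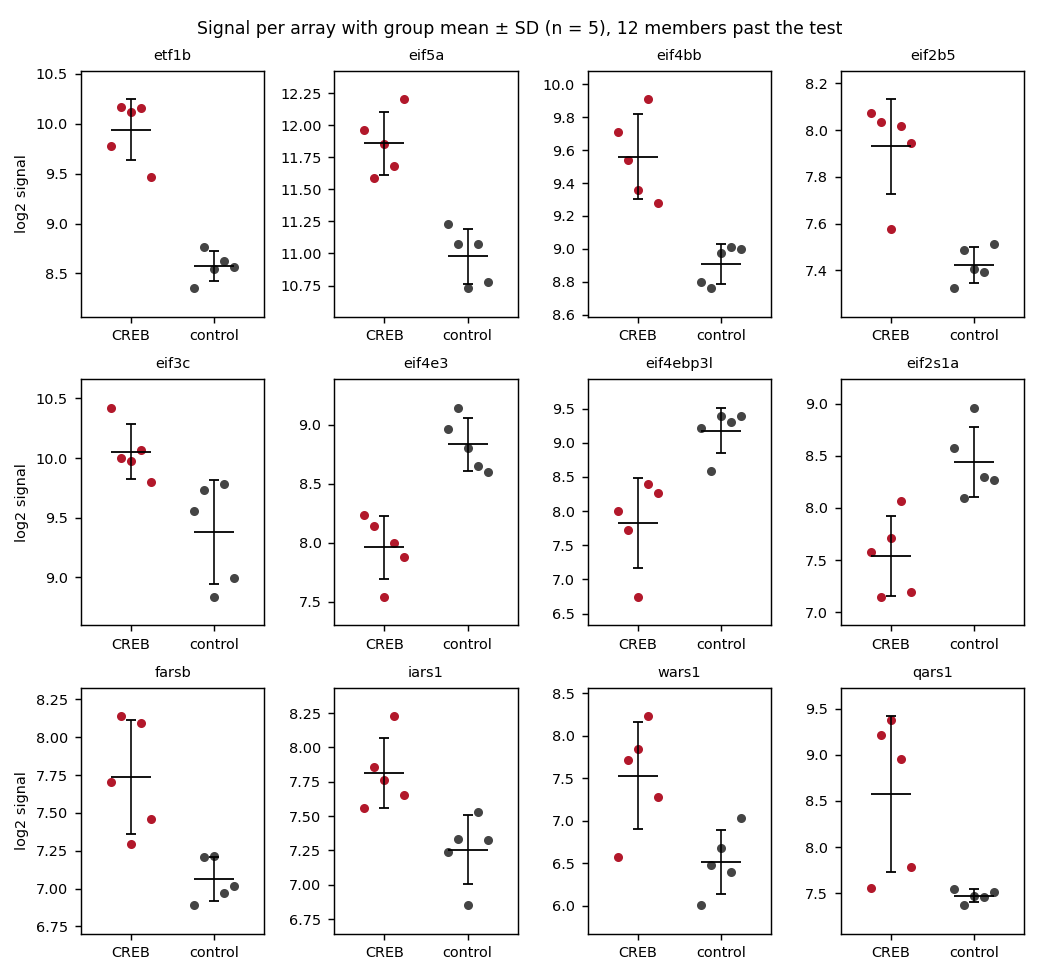
Log2 signal (y axis) on each array for 12 members past the test, CREB left and control right, with lines for the group mean and bars of 1 SD (n = 5). Points of the groups are apart in every panel except wars1, and the CREB arrays of qars1 split between 7.56 to 7.78 and 8.96 to 9.37.

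Of the 13 elongation genes 1 rose, 2 fell and 10 did not pass. The gene eef1a1l1, for eEF1A, had 13.85, 13.94, 14.14, 14.02 and 14.02 in CREB and 13.73, 13.74, 13.64, 13.85 and 13.59 in control marrow. CREB array 1 and control array 4 were almost level, and its log2 difference was 0.28 ± 0.10 (SE; limma, adjusted p = 0.0483). The call stood at the threshold and was lost when any 1 array other than CREB array 1 was left out (adjusted p up to 0.105), and in 11 of the 12 other settings. The eEF1B exchange factor genes eef1b2, eef1g and eef1db had differences of 0.00 ± 0.13, -0.14 ± 0.14 and 0.10 ± 0.34 (SE) and did not pass. The dim paralogues eef1a1a and eef1a1b, at -0.25 and 0.44, and the paralogue eef2l2, at 0.01, did not pass either. For eef1b2 the 95% interval ran from -0.28 to 0.28. The eEF2 kinase gene eef2k, which slows elongation, had a difference of -0.26 ± 0.23 (limma, adjusted p = 0.385), and eef1e1, which encodes a scaffold protein of the synthetase complex, one of 0.09 ± 0.23. The lower calls were both dim. The gene eef1akmt2, for a methyltransferase of eEF1A, was at 4.43 ± 0.22 in CREB and 5.12 ± 0.35 in control marrow, and eef2a.1, an eEF2 gene, at 4.97 ± 0.25 in CREB and 5.51 ± 0.25 in control marrow (SD, n = 5 each; limma, adjusted p = 0.0202 and 0.0319). In CREB marrow eef1akmt2 was near the empty-tag level of 4.33, which limits the size of its fall. The eef2a.1 call was lost without CREB array 1, 2 or 5 or control array 3 or 5 (adjusted p up to 0.0725).

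For tRNA charging, genes with names ending in 2 were counted as mitochondrial and the others as cytosolic. Whether any of the others, such as hars, also serves mitochondria was not examined. All 5 calls were among the 15 genes counted as cytosolic, and all were higher (33.3%, against 23.5% of all probe sets and 19.3% of named genes that were higher). With median scaling, and again without CREB arrays 3 and 5, farsb was the only one of the 5 that passed (iars1, qars1, wars1 and hars had adjusted p from 0.0503 to 0.108 with median scaling). The 5 mitochondrial genes cars2, fars2, pars2, rars2 and wars2 had log2 differences between -0.12 and 0.29 and none passed (limma, adjusted p from 0.161 to 0.797). With array weights fars2, for the mitochondrial phenylalanine enzyme, passed as higher, at 0.40 (limma, adjusted p = 0.0420). The difference between the 2 kinds of enzyme was not tested. The median log2 difference was 0.39 for the cytosolic and 0.08 for the mitochondrial genes, against 0.18 for all probe sets, 0.10 for named genes and 0.01 without the dimmest 40% of probe sets. The gene farsb, for the beta subunit of the phenylalanine enzyme, had 7.70, 8.14, 7.30, 8.09 and 7.46 in CREB and 6.89, 7.21, 7.22, 6.97 and 7.02 in control marrow. CREB array 3 was only just above the control range. It rose by 0.68 ± 0.18 (SE; limma, adjusted p = 0.0203), and its call held with any 1 array left out (adjusted p up to 0.0458). The farsb call was lost without control arrays 4 and 5 (adjusted p = 0.105) or 3, 4 and 5 (adjusted p = 0.151), and with the replicate number as a block.

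The isoleucine enzyme gene iars1 had 7.56, 7.86, 7.77, 8.23 and 7.66 in CREB and 7.24, 7.34, 6.85, 7.53 and 7.33 in control marrow. CREB array 1 and control array 4 nearly touched. Its rise was 0.56 ± 0.16 (SE; limma, adjusted p = 0.0289). That call was lost without CREB array 2 or control array 1, 3 or 5 (adjusted p up to 0.0561). The glutamine enzyme gene qars1 had 7.56, 9.21, 9.37, 8.96 and 7.78 in CREB and 7.55, 7.37, 7.47, 7.46 and 7.51 in control marrow. CREB arrays 2, 3 and 4 were well above control, while arrays 1 and 5 were near it. Its rise of 1.104 ± 0.34, 2.15-fold, passed at adjusted p = 0.0367 (SE; limma). Its other 2 probe sets, at 0.38 and 0.08, did not pass. The qars1 call was lost without CREB array 2, 3 or 4 or any 1 control array (adjusted p up to 0.0735).

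The tryptophan enzyme gene wars1 had 6.58, 7.72, 7.85, 8.23 and 7.28 in CREB and 6.01, 6.48, 6.68, 6.395 and 7.03 in control marrow. CREB array 1 lay inside the control range. Its rise of 1.01 ± 0.30, 2.02-fold, passed (SE; limma, adjusted p = 0.0316), and was lost without CREB array 2, 3 or 4 or control array 1, 2, 3 or 4 (adjusted p up to 0.0668). The histidine enzyme gene hars rose by 0.45 ± 0.15 at the edge of the threshold (limma, adjusted p = 0.0476), at 8.48 ± 0.31 in CREB and 8.03 ± 0.13 in control marrow (SD, n = 5 each). Its call was lost without CREB array 2, 3 or 4 or any 1 control array (adjusted p up to 0.0975).

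The methionine enzyme gene mars1 was the only member free of overlap that did not pass. It had 6.55, 8.50, 6.63, 7.51 and 6.71 in CREB and 6.13, 6.52, 6.48, 6.25 and 6.44 in control marrow. CREB arrays 2 and 4 carried its difference of 0.82 ± 0.34 (SE; limma, adjusted p = 0.0927). CREB array 4 gave the highest CREB value for 10 of the 20 synthetases, against 21.2% of all probe sets, and CREB array 2 the lowest for none, against 21.7%. Its second probe set lay near the empty-tag level in both groups and is not read here. The asparagine enzyme gene nars1, at 0.61 ± 0.26, and the valine enzyme gene vars1, at 0.39 ± 0.23, missed the threshold (limma, adjusted p = 0.0947 and 0.215). A second and dim probe set of vars1 was higher by 0.50 (limma, adjusted p = 0.0169). With the probe sets of each gene averaged, mars1 and vars1 passed as higher (limma, adjusted p = 0.0219 and 0.0348), while the qars1 call was lost. The mars1 average takes in its probe set near the empty-tag level, which limits the reading of that call. The genes for the alanine, lysine, glycine, arginine, threonine and tyrosine enzymes, aars1, kars1, gars1, rars1, tars1 and yars1, had differences between -0.12 and 0.19. The 95% intervals of aars1 and kars1, from -0.45 to 0.21 and from -0.18 to 0.44, leave out a 2-fold change. The cysteine enzyme gene cars1, the lowest at -0.52 ± 0.29, had 5.26 on CREB array 3, 5.05 on CREB array 5 and 6.09 to 6.58 on the rest of that group, and 6.35 to 6.48 in control marrow, and did not pass (limma, adjusted p = 0.181).

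Few calls stood when control arrays were left out, which also leaves fewer samples. A call lost there cannot tell lower precision from a part of those arrays in the difference. Without control arrays 3, 4 and 5, which carry egg or pancreas transcripts, 2 of the 85 members passed, etf1b as higher (1.38; limma, adjusted p = 0.0372) and eif4e3 as lower (-1.10; limma, adjusted p = 0.0457). In that fit 2.38% of all probe sets passed. The synthetase median was 0.36 there, and no synthetase passed. The differences of qars1, wars1, farsb and iars1 were 1.12, 1.29, 0.69 and 0.52 (limma, adjusted p from 0.117 to 0.210). Without control arrays 4 and 5, the arrays with pancreas transcripts, etf1b, eif5a and eif4e3 passed and the synthetase median was 0.20.

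Genes that work beside these factors were read from 3 further lists. In the list of other translation genes 9 of 25 measured were higher and 2 lower (44.0% past the test, against 30.3% of all probe sets and 28.4% of named genes). Those counts were 5 and 2 with median scaling, 6 and 1 with trend and robust settings, and 5 and 1 without control array 5. The poly(A)-binding protein gene pabpc1a, whose product joins the mRNA tail to eIF4G, had 13.47, 13.40, 13.39, 13.34 and 13.27 in CREB and 12.67, 12.71, 12.46, 12.99 and 12.55 in control marrow. The groups were apart, and it rose by 0.70 ± 0.11 (SE; limma, adjusted p = 0.00456), as did pabpc1b, by 1.20 ± 0.25 (limma, adjusted p = 0.00937). The mitochondrial initiation factor gene mtif3 rose most, 4.71-fold, with 7.59, 7.04, 8.85, 7.03 and 8.22 in CREB and 5.24, 5.69, 5.03, 5.94 and 5.63 in control marrow (limma, adjusted p = 0.00422). The initiation helicase gene dhx29 rose by 0.65 and gspt1l, for the eRF3 partner of eRF1, by 0.34 (limma, adjusted p = 0.00679 and 0.0218). The gspt1l call was lost without control array 5 (adjusted p = 0.0510) and in 9 of 11 other settings (adjusted p up to 0.162). The 2 synthetase genes outside the naming rule were eprs1, for the glutamate and proline enzyme, higher by 0.51, and farsa, at 0.45, which missed the threshold (limma, adjusted p = 0.0390 and 0.0519). The eprs1 call was lost without CREB array 1 or 2 or any 1 control array (adjusted p up to 0.0831). The gene paip1, for a partner of the poly(A)-binding protein, fell by 0.68 on the log2 scale (limma, adjusted p = 0.0105). Without CREB arrays 3 and 5 8 of the list were higher and 1 lower, and without control arrays 3, 4 and 5 2 were higher and none lower.

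Of 17 mTOR pathway genes 2 were higher and 3 lower (29.4% past the test, against 30.3% of all probe sets and 28.4% of named genes). The lower count was 1 with quantile scaling and 5 with array weights. The gene larp1, for a repressor of mRNAs that encode ribosomal proteins and translation factors, had 7.91, 7.97, 7.53, 7.89 and 7.66 in CREB and 6.43, 6.68, 6.69, 6.71 and 6.95 in control marrow. All CREB arrays lay above all control arrays. It rose 2.14-fold (log2 difference 1.098 ± 0.13, SE; limma, adjusted p = 0.00146), and its call held in each of the 11 other settings run for it and with any 1 array left out. The mTOR complex inhibitor gene akt1s1 fell by 1.22 ± 0.25 on the log2 scale (limma, adjusted p = 0.00973). Of 23 amino acid response and integrated stress response genes 6 were higher and 1 lower (30.4% past the test, against 30.3% of all probe sets and 28.4% of named genes). The higher ones were 26.1% of the list, against 23.5% of all probe sets and 19.3% of named genes. The glutathione-degrading gene chac1 rose by 1.24 and the cysteine synthesis gene cth by 1.502 (limma, adjusted p = 0.0145 and 0.0140). The chac1 call was lost in 3 of 11 other settings and the cth call in 4 (adjusted p up to 0.0702 and 0.199). The stress response gene atf3 was higher by 1.41 and the ATF4 gene atf4b by 0.72 (limma, adjusted p = 0.0256 and 0.0360), both without overlap. The 1 lower gene was atf5a, at -0.76, and cebpb was higher by 1.26 (limma, adjusted p = 0.0117 and 0.00859), again without overlap. The atf5a and cebpb calls held with any 1 array left out and were lost without control arrays 4 and 5 or 3, 4 and 5. The atf3 call was lost without CREB array 3 or 5 or control array 5, and the atf4b call without CREB array 1, 3 or 5 or control array 3 or 4 (adjusted p up to 0.0586 and 0.0791). In the 11 other settings the atf3 call was lost in 3 and the atf4b call in 7 (adjusted p up to 0.183 and 0.227). The amino acid response target asns, at -0.58 (limma, adjusted p = 0.438), did not pass, nor did atf4a, the other ATF4 gene, at -0.26 (adjusted p = 0.739). On control arrays 3 and 5 asns was at 6.94 and 7.53. It was at 4.71 to 5.06 on the other control arrays and at 4.77 to 5.91 on CREB arrays. The gene atf4a had 7.96 on CREB array 3, 8.89 on CREB array 5 and 10.19 to 11.40 on the rest of that group, against 9.69 to 10.38 in control marrow. In this list 3 genes were higher without CREB array 5, 2 without CREB arrays 3 and 5 and none without control arrays 4 and 5. Without control arrays 3, 4 and 5, 1 gene was higher in each of the mTOR and amino acid lists and none was lower.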

How the data were processed

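The authors' deposited table of log2 signals, 15617 probe sets on 10 Affymetrix zebrafish arrays labelled with a 3′ IVT kit per the labels' protocols, was used as deposited. Its log2 unit was read from the deposited values (2.57 to 15.04), while how probes were summarised and arrays normalized is not stated in the labels. After 115 control probe sets were set aside, 15502 were tested. Of these 10795 had 1 symbol in the platform annotation, 135 several and 4572 none. Symbols were updated through the Entrez ID (10711 matched) with a RefSeq table of GRCz12tu, used for names only. No member's symbol changed.

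For each gene the probe set with the highest mean over 10 arrays was used. Of the 85 members 19 had several probe sets, whose calls differed for 8 and whose direction differed for 7. CREB was compared with control with lmFit and eBayes of limma (version 3.58.1, under R 4.3.3), two-sided and without covariates, with Benjamini-Hochberg adjustment over 15502 probe sets and a threshold of 0.05. Tables and figures were made with pandas 2.3.3 and matplotlib 3.10.9 under Python 3.11.15. The number of arrays limits the precision. In simulated data for this comparison with 200 of 15502 probe sets changed, the fit recovered 58.0% of log2 changes of 1 and 87.0% of changes of 2. It called 8 unchanged probe sets there, and 0 when nothing was changed. The simulated noise was independent between probe sets and held no effect shared by the genes of an array. In the real data 30.3% of probe sets passed, so these values give no rate of missed or false calls for these arrays.

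The members, gene lists and alternatives were chosen with earlier results of these data known. Named genes were the 10 members of each class with the smallest p, the 3 with the highest mean, and all eif4ebp, eif2ak and eif4e genes and eef2k. All members past the test were named as well. Other members are named to account for the list or for where single arrays stood, chosen after their values were seen. Genes of the further lists were named after their values were seen.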

Additional observations from a re-analysis of the deposited data

Results flagged for a closer look

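In 86 groups of 5 arrays, 2 for each of 43 named genes, 4 held a single array far from the other 4. Chance alone sets about 1 in 20 such groups apart. On CREB array 4, eef1a1l3 was at 7.42 against 5.44 to 5.51 on the other CREB arrays, and eif4e1b at 7.41 against 5.15 to 5.71. The egg and gonad markers averaged 7.48 on that array and 5.08 to 5.96 on the other CREB arrays. Their part in these values was not tested. CREB array 3 was low for eif2b5, at 7.58 against 7.95 to 8.07 on the other CREB arrays, and had a 5′ gapdh signal of 6.50. Control array 2 was low for eif4ebp3l, at 8.59 against 9.21 to 9.40 on the other control arrays. Without control array 2 the eif4ebp3l difference was -1.503, and without CREB array 3 the eif2b5 difference was 0.59, both still past the test.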

How the results depend on the processing

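Counts of members past the test (10 initiation factors, 4 elongation and termination factors and 5 synthetases over all arrays) fell most when control arrays were dropped, which also leaves fewer samples. Without control arrays 3, 4 and 5 they were 1, 1 and 0, and without control arrays 4 and 5 they were 2, 1 and 0. Without CREB arrays 3 and 5 synthetases fell to 1. With only probe sets of mean log2 6 or more, which leaves 76 members tested, they were 6, 1 and 3. Without the dimmest 40% the elongation count was 1. With median scaling 1 synthetase passed. With the replicate number as a block 1 elongation factor and 2 synthetases passed, and the causes were not tested. Same-numbered arrays had correlations of deviations between -0.02 and 0.27, and 2 of 10 arrays correlated best with their own number, so the numbers were not taken as pairs. Leaving out 1 array at a time gave 6 to 9 initiation factors, 2 to 3 elongation and termination factors and 1 to 5 synthetases. No member past the test changed direction in any setting. Calls over all probe sets went from 30.3% to 18.4% with quantile, 20.4% with median and 18.3% with cyclic loess scaling, with 1723 higher and 1129 lower, 2001 and 1162, and 1473 and 1364, against 3640 and 1052 as deposited. With array weights, trend and robust settings, or probe sets averaged per gene, each class count stayed within 1.5 times.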
